A study of Mus musculus with 4 samples.

Results

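The retinoid metabolism and binding genes described in these mouse mammary fibroblasts were 8: Aldh1a1, Aldh1a2, Aldh1a3 and Aldh1a7 of the aldehyde dehydrogenase family, the retinal reductase Rdh12, the retinoic acid-binding proteins Crabp1 and Crabp2, and the receptor Rarb. A probe set belonged to them if the platform annotation gave it exactly 1 gene symbol and that symbol was one of the 8, which held for 11 of 22690 probe sets, in 8 of the 12394 genes on the array. The genes were picked with their values in these arrays known, from the same differences between groups that are given here, so every value is a description and none was tested. Aldh1a3 had 3 probe sets, Rdh12 had 2 and each of the other 6 genes had 1. Here a gene is called on the array only if it has a probe set with exactly 1 gene symbol. A gene measured by shared probe sets alone is thus not counted.

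The question of the study was what Ets2, a transcription factor of the ETS family, does in fibroblasts next to normal mammary epithelium and next to epithelium with the PyMT oncogene, the polyoma middle T antigen. Affymetrix mouse arrays were hybridized with RNA of cultured fibroblasts from FVB/N mice aged 9 weeks, 1 array for each of 4 groups. These were PyMT Ets2-null (PyMT;Fsp-cre;Ets2db/loxP), PyMT Ets2-present (PyMT;Ets2db/loxP), normal Ets2-null (Fsp-cre;Ets2db/loxP) and normal Ets2-present (Ets2db/loxP) fibroblasts. All 4 groups carried 1 conventional knockout allele (db) and 1 conditional allele (loxP), so the Ets2-present cells had a single intact copy of Ets2. The Fsp-cre transgene, Cre under the promoter of fibroblast-specific protein, was in the Ets2-null groups alone, and its presence and the loss of Ets2 cannot be told apart. PyMT was driven in the epithelium by the MMTV promoter, and the fibroblasts had been passaged in medium with serum before RNA was taken. How many mice gave each culture is not stated in the sources used here.

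Retinoic acid is made from vitamin A in a pair of steps: alcohol and short-chain dehydrogenases convert retinol to retinal, which reductases can turn back, and retinaldehyde dehydrogenases of the ALDH1A family then oxidize retinal to retinoic acid. Inside the cell retinoic acid is held by the CRABP proteins, and it acts through nuclear receptors (RAR, paired with RXR) that bind response elements in DNA. In many tissues mesenchymal cells such as fibroblasts are a source of retinoic acid, and retinoids are known to slow the growth of mammary epithelial cells.

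The response element of Rarb is a textbook case, because the gene is induced by its own ligand, and the promoter stretches of Aldh1a1 and Aldh1a7 are shown because both paralogues had their lowest level in the same array. RefSeq promoter windows (GRCm38.p6), from 250 bases before to 50 after the annotated start, were matched by symbol for 6 of the 8 genes, in 7 windows, with Aldh1a3 and Crabp2 unmatched. Each stretch shown is the 100 bases that end just before the start, 5′ to 3′ on the gene's own strand. For Rarb, at chr14:16575477-16575576 on the minus strand, capitals mark a direct repeat of the receptor half-site with a spacer of 5 bases (DR5), 53 to 37 bases before the start:
Rarb: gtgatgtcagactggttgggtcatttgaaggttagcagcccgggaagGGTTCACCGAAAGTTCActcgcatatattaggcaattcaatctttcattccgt
For Aldh1a1 (chr19:20601868-20601967, plus strand) and Aldh1a7 (chr19:20727557-20727656, minus strand), capitals mark the bases that differ between them:
Aldh1a1: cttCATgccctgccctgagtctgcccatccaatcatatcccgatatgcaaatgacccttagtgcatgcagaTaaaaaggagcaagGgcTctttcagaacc
Aldh1a7: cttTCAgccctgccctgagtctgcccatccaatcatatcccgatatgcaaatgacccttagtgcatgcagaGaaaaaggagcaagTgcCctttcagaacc

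The DR5 element, searched on both strands, was found in 1 of the 7 windows of these genes, that of Rarb, and in 32 of 32851 RefSeq windows of the same length (0.0974%). The DR2 element, with a spacer of 2 bases, was in none of the 7 and in 0.268% of all windows. GGAA, the core that ETS factors bind, was in every window of these genes except that of Aldh1a2, but it was also in 96.0% of all windows, and the longer ETS motif CCGGAAGT was in none of the 7 and in 3.89% of all. The Rarb window held 3 GGAA cores, of which 1 lies 58 to 55 bases before the start and does not overlap the DR5 element. Compared base by base back from the start, without gaps, the Aldh1a1 and Aldh1a7 stretches were identical at 94 of 100 bases. Over 250 bases before the start, 129 (51.6%) matched in this way. Because no gaps were allowed, an inserted or lost base would lower that count, so it does not measure likeness over the 250 bases. A second annotated Aldh1a1 window shared 30 of 100 bases with Aldh1a7. The genes lie on chromosome 19 with 3 other annotated genes between them. Sequence matches of this kind are descriptions of the letters only.

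The values are log2 levels by RMA (Robust Multichip Average), which corrects background, normalizes the arrays to each other and summarizes the probes of a probe set, so that a difference of 1 is a 2-fold difference. The levels of different genes are not comparable on this scale, and comparisons of single genes are made within a probe set. The exceptions are means over the probe sets of a gene and summed or median levels of marker lists. A sum of levels is weighted to the brightest markers in it. A level under 4.63, the 40th percentile of the table, is called weak, and the levels of the 8 genes nearest to it were 4.37 below and 4.78 above, both of Rarb. A gene with several probe sets was read from the one with the highest mean over the 4 arrays and was kept if its highest level was not weak, which kept 8687 genes and all 8 retinoid genes, though 2 probe sets (1 each of Aldh1a3 and Rdh12) were weak in all 4 arrays. With 1 array per group no difference has a replicate check. As a stand-in for the spread, the differences of the 2 brightest kept probe sets of a gene were compared in 3378 genes, and their disagreement had an SD of 0.68 for the Ets2 difference in PyMT and 0.48 in normal fibroblasts, and of 0.70 for the PyMT difference in Ets2-null and 0.51 in Ets2-present fibroblasts.

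The arrays had medians of 5.63 to 5.74 and pairwise correlations of 0.959 to 0.985 over all probe sets, and the PyMT Ets2-null array correlated least with the others. Ets2 itself had 11.22 in PyMT Ets2-null, 11.21 in PyMT Ets2-present, 11.89 in normal Ets2-null and 11.86 in normal Ets2-present fibroblasts, and since it is unknown whether its probe set covers the exons that were deleted, these levels check nothing. Loss of the protein was reported in the paper for PyMT Ets2-null fibroblasts, by Western blot and by staining for phosphorylated ETS2. All 10 fibroblast markers, among them Col1a1, Pdgfra and Vim, were above 4.63 in every array. The epithelial markers Cdh1, Krt8, Elf3 and Cldn4 were weak in every array, but Krt5 was above 4.63 in every array (4.77 to 5.53). Krt18 reached 8.05 in normal Ets2-present and Krt19 7.36 in PyMT Ets2-present fibroblasts. In RNA of whole cultures, fewer cells of a type and less RNA per cell cannot be told apart.

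**Figure D1:**
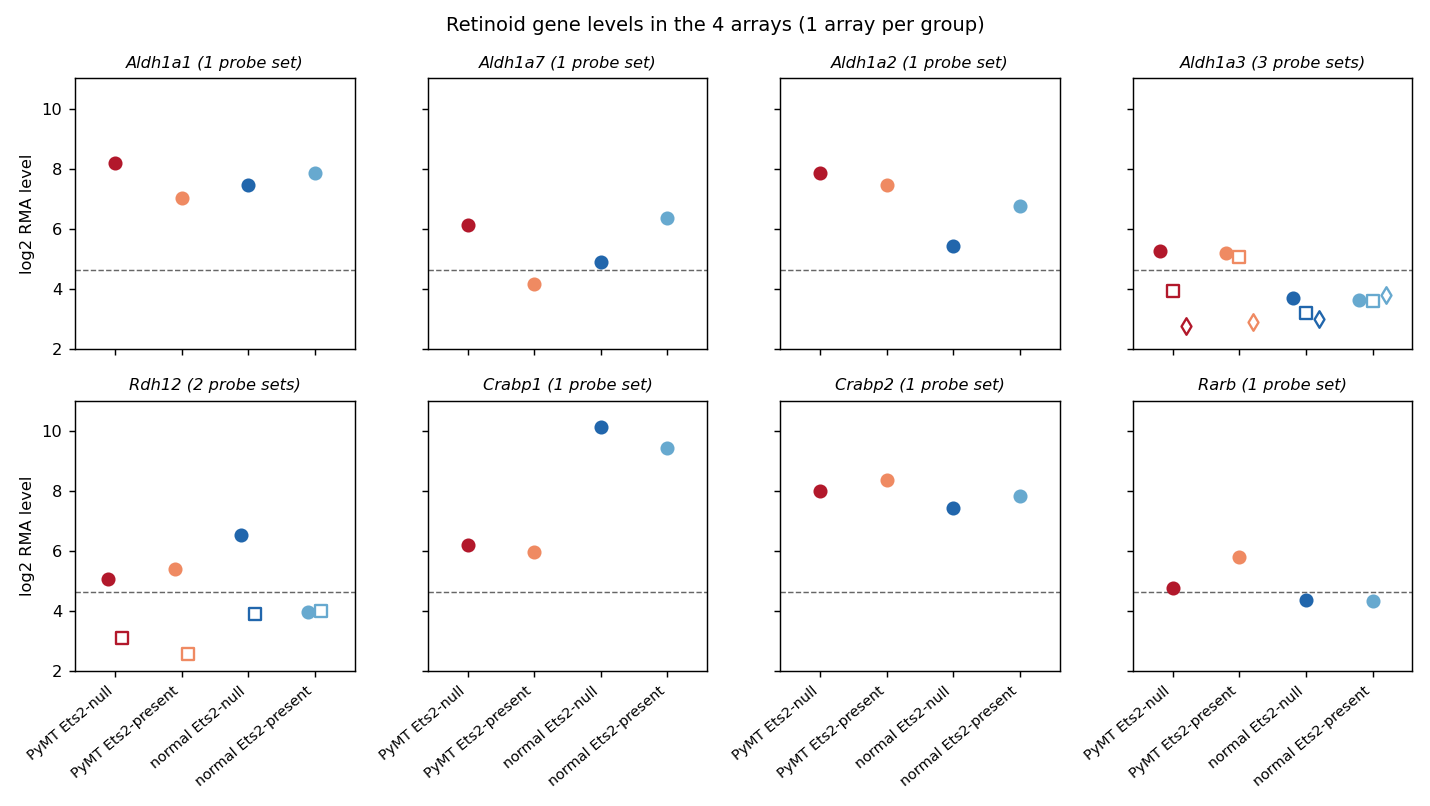
Log2 RMA level of each probe set of the 8 retinoid genes (vertical axis) in the 4 groups (horizontal axis), 1 array per group, where filled circles are the probe set that represents the gene, open symbols the other probe sets, and the dashed line the 4.63 level under which a value is called weak. Crabp1 sits at 6.22 and 5.98 in the PyMT groups and at 10.12 and 9.44 in the normal groups, and Aldh1a7 is higher at the 2 outer positions than at the 2 inner ones.

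Of the enzymes that make retinoic acid, Aldh1a1, a retinaldehyde dehydrogenase that is also used as a marker of stem-like cells, was well above the weak level everywhere. Its level (probe set 1416468_at) was 8.20 in PyMT Ets2-null, 7.01 in PyMT Ets2-present, 7.45 in normal Ets2-null and 7.87 in normal Ets2-present fibroblasts. The PyMT Ets2-null array was thus the highest and the PyMT Ets2-present array the lowest. Ets2-null exceeded Ets2-present cells by 1.19 (2.28-fold) with PyMT, whereas without the oncogene the difference was -0.41 (1.33-fold lower), which is smaller than the stand-in spread. The difference between these Ets2 differences was 1.60.

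Aldh1a7, a rodent paralogue of Aldh1a1, had the same groups at the top and at the bottom of its range, in the other order at the top. Its level (1418601_at) was 6.14 in PyMT Ets2-null and 4.18, which is weak, in PyMT Ets2-present fibroblasts. It was 4.89 in normal Ets2-null and 6.37 in normal Ets2-present fibroblasts. The sign of the Ets2 difference was therefore opposite in the 2 settings, 1.96 (3.89-fold higher) with PyMT and -1.48 (2.80-fold lower) without, and their difference of 3.44 was the 4th highest of 8687 kept genes. With weak values raised to 4.63 the PyMT value was 1.50 (2.84-fold) and the difference between the settings 2.99. Read the other way, PyMT fibroblasts exceeded normal ones by 1.25 (2.37-fold) when Ets2 was deleted, and were lower by 4.58-fold when it was present (-2.20, or -1.74 with weak values raised). Of all kept genes, 80 (0.921%) had Ets2 differences of opposite sign and at least 2-fold in both settings. The paralogues are close in sequence, and whether transcripts of one bind the probes of the other was not tested.

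Aldh1a2, the main retinaldehyde dehydrogenase of the mesenchyme in the embryo, was set apart by a single low array. Its level (1422789_at) was 7.85 in PyMT Ets2-null, 7.45 in PyMT Ets2-present, 5.42 in normal Ets2-null and 6.77 in normal Ets2-present fibroblasts, none of them weak. The normal Ets2-null array was the lowest, and both PyMT arrays were above both normal arrays. Without the oncogene Ets2-null cells were lower by 2.55-fold (-1.35), and with PyMT the difference was 0.40 (1.32-fold), within the stand-in spread. PyMT fibroblasts exceeded normal ones by 2.42 (5.37-fold) in the absence of Ets2 and by 0.68 (1.60-fold) in its presence. Of the 6 pericyte markers, Mcam and Rgs5 had the same order of arrays as Aldh1a2, and Mcam, an adhesion molecule of pericytes and endothelium, had 8.90 in PyMT Ets2-null, 7.12 in PyMT Ets2-present, 5.16 in normal Ets2-null and 6.17 in normal Ets2-present fibroblasts. Cspg4 went the other way between the PyMT arrays, with 3.84 in PyMT Ets2-null and 5.27 in PyMT Ets2-present, against 4.11 in normal Ets2-null and 4.60 in normal Ets2-present fibroblasts, of which only 5.27 was not weak. Des was weak in 3 arrays. The log2 of the summed level of the 6 markers ran from 6.70 in normal Ets2-null to 9.28 in PyMT Ets2-null fibroblasts, with Kcnj8 and Abcc9 weak in every array, and their part in the Aldh1a2 values was not tested.

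Aldh1a3, the family member most associated with epithelia, was weak or near weak throughout, and its probe sets disagreed. The representing probe set (1448789_at) had 5.25 in PyMT Ets2-null and 5.20 in PyMT Ets2-present fibroblasts, against weak levels of 3.69 in normal Ets2-null and 3.64 in normal Ets2-present fibroblasts. The PyMT arrays were thus both above the normal ones, by 1.57 in Ets2-null (2.96-fold) and 1.56 in Ets2-present cells (2.94-fold), and Ets2 status made a difference of at most 0.06 in this probe set. With weak values raised these PyMT differences were 0.62 (1.54-fold) and 0.56 (1.48-fold), both under 2-fold. A second probe set (1427395_a_at) was above 4.63 in the PyMT Ets2-present array alone, at 5.08, with 3.93 in PyMT Ets2-null, 3.20 in normal Ets2-null and 3.60 in normal Ets2-present fibroblasts. The third (1417642_at) was weak in all 4 arrays, with 2.77 in PyMT Ets2-null, 2.90 in PyMT Ets2-present, 2.99 in normal Ets2-null and 3.79 in normal Ets2-present fibroblasts, so that its order did not match that of the brightest one. Markers of other cell types differed with the oncogene too, in both directions. The keratin Krt19 had 7.21 and 7.36 in PyMT Ets2-null and PyMT Ets2-present fibroblasts, against 4.38 and 4.98 in normal Ets2-null and normal Ets2-present fibroblasts, whereas Krt18 was lower with PyMT by 4.71-fold in Ets2-null and 14.1-fold in Ets2-present cells. Of the 9 epithelial markers, 5 were weak in PyMT Ets2-null and 7 in PyMT Ets2-present, against 7 in normal Ets2-null and 6 in normal Ets2-present fibroblasts. The log2 of their summed level was 8.35 and 8.24 in these PyMT arrays and 7.75 and 8.60 in these normal ones. The highest sum was thus in normal Ets2-present fibroblasts, where Krt18 was at 8.05. Their median level ran otherwise, with 4.5 and 4.1 in these PyMT arrays and 3.5 and 3.4 in these normal ones, all below 4.63. The fatty acid-binding Fabp4, an adipocyte marker, had 9.99 and 9.96 in PyMT Ets2-null and PyMT Ets2-present against 6.82 and 7.64 in normal Ets2-null and normal Ets2-present fibroblasts, while the defining adipocyte genes Adipoq, Lep and Retn were weak in every array. The part of these markers in the Aldh1a3 values was not tested.

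Rdh12 reduces retinal to retinol and is best known from photoreceptors, where its loss causes retinal degeneration. The brighter probe set (1424256_at) had 5.07 in PyMT Ets2-null, 5.41 in PyMT Ets2-present, 6.55 in normal Ets2-null and a weak 3.98 in normal Ets2-present fibroblasts. The normal Ets2-null array stood above the other 3. Without the oncogene the Ets2 difference was 2.57 (5.93-fold higher; 3.77-fold with the weak value raised), the 7th highest of 8687, and with PyMT it was -0.34 (1.26-fold lower). PyMT fibroblasts were lower by 2.79-fold (-1.48) in the absence of Ets2 and higher by 1.43 (2.69-fold, or 1.71-fold with the weak value raised) in its presence. The second probe set (1431010_a_at) was weak in all 4 arrays, with 3.11 in PyMT Ets2-null, 2.59 in PyMT Ets2-present, 3.92 in normal Ets2-null and 4.01 in normal Ets2-present fibroblasts. Its PyMT difference in Ets2-null fibroblasts had the same sign as that of the brighter probe set (-0.80 and -1.48), and its other 3 differences had the opposite sign. When the 2 probe sets were averaged, the Ets2 difference in normal fibroblasts was 1.24 and the PyMT difference in Ets2-present fibroblasts 0.01.

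Among the binding proteins, Crabp1 had the widest range of the 8 genes. CRABP1 holds retinoic acid in the cytosol and is linked to its breakdown, and it is expressed in many mesenchymal cells. Its level (1448326_a_at) was 6.22 in PyMT Ets2-null and 5.98 in PyMT Ets2-present fibroblasts, against 10.12 in normal Ets2-null and 9.44 in normal Ets2-present fibroblasts. The PyMT arrays were lower by 15.0-fold (-3.90) when Ets2 was deleted and by 11.1-fold (-3.47) when it was present, the 26th and the 23rd lowest of 8687 kept genes. The Ets2 differences were smaller, 0.24 (1.18-fold) with PyMT and 0.68 (1.60-fold) without. Some markers were split by the oncogene in the same direction, among them the keratin Krt18, at 4.49 in PyMT Ets2-null and 4.23 in PyMT Ets2-present against 6.72 in normal Ets2-null and 8.05 in normal Ets2-present fibroblasts. The endothelial receptor Kdr was lower with PyMT by 5.46-fold in Ets2-null and 4.51-fold in Ets2-present cells, and the fibroblast matrix gene Dcn by 5.32-fold and 2.15-fold, whereas Krt19 was higher by 7.07-fold and 5.22-fold. Of the 6 endothelial markers, 5 were weak in PyMT Ets2-null and 6 in PyMT Ets2-present, against 5 in each of the normal arrays, with Pecam1 and Cdh5 weak in all, and the log2 of their summed level was 6.78 and 6.51 with PyMT and 7.33 and 6.85 without. The part of these markers in the Crabp1 values was not tested.

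Crabp2, which carries retinoic acid to its nuclear receptors, varied least. Its level (1451191_at) was 8.02 in PyMT Ets2-null, 8.37 in PyMT Ets2-present, 7.45 in normal Ets2-null and 7.82 in normal Ets2-present fibroblasts. Ets2-null cells were the lower ones in both settings, by nearly the same amount (-0.35 with PyMT and -0.37 without), and PyMT cells the higher ones (0.57 without Ets2 and 0.55 with it). The 4 differences were each below 1.5-fold, and the Ets2 differences were within the stand-in spread.

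Rarb encodes a nuclear receptor for retinoic acid and is itself induced by it through the DR5 element shown above. Its level (1454906_at) was 4.78 in PyMT Ets2-null and 5.81 in PyMT Ets2-present fibroblasts, and it was weak in normal Ets2-null (4.37) and normal Ets2-present (4.34) fibroblasts. The PyMT Ets2-present array thus stood above the other 3, which lay between 4.34 and 4.78, on either side of the weak level. With PyMT the Ets2-null cells were lower by 2.05-fold (-1.03), a value that lay just past 2-fold and was -0.93 when the array medians were made equal. Without the oncogene the difference was 0.03. In the presence of Ets2, PyMT fibroblasts exceeded normal ones by 1.47 (2.77-fold, or 2.27-fold with weak values raised), and in its absence by 0.41 (1.33-fold). The macrophage markers Csf1r, Adgre1, Tyrobp and Lyz2 were also highest in PyMT Ets2-present fibroblasts, Lyz2 by little (9.13 against 9.09 in PyMT Ets2-null). Cd14 and Cd68 were highest in normal Ets2-null and Ptprc and Itgam in PyMT Ets2-null fibroblasts. Csf1r had 6.19 in PyMT Ets2-null, 8.12 in PyMT Ets2-present, 6.54 in normal Ets2-null and 6.95 in normal Ets2-present fibroblasts. The log2 summed level of the 8 macrophage markers was 9.56 in PyMT Ets2-null, 10.04 in PyMT Ets2-present, 8.64 in normal Ets2-null and 8.79 in normal Ets2-present fibroblasts, with Itgam weak in all 4 arrays, and their part in the Rarb values was not tested.

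Set against all kept genes, the Ets2 difference in PyMT fibroblasts was at least 2-fold for 3 of the 8 genes. Aldh1a1 and Aldh1a7 were higher in Ets2-null cells, where 7.64% of the 8687 kept genes were, and Rarb was lower, where 7.77% were. None reached 4-fold, as 0.691% of kept genes did upward and 0.944% downward. In normal fibroblasts Aldh1a7 and Aldh1a2 were at least 2-fold lower (2.41% of kept genes) and Rdh12 at least 2-fold higher (3.02%) in Ets2-null cells, and Rdh12 alone of the 8 passed 4-fold (0.288% higher, 0.0806% lower). The median of the 8 genes was 0.15 with PyMT and -0.17 without, beside 0.02 and -0.02 over all kept genes. Because the genes were chosen with these differences in view, nothing is read from the counts.

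**Figure D2:**
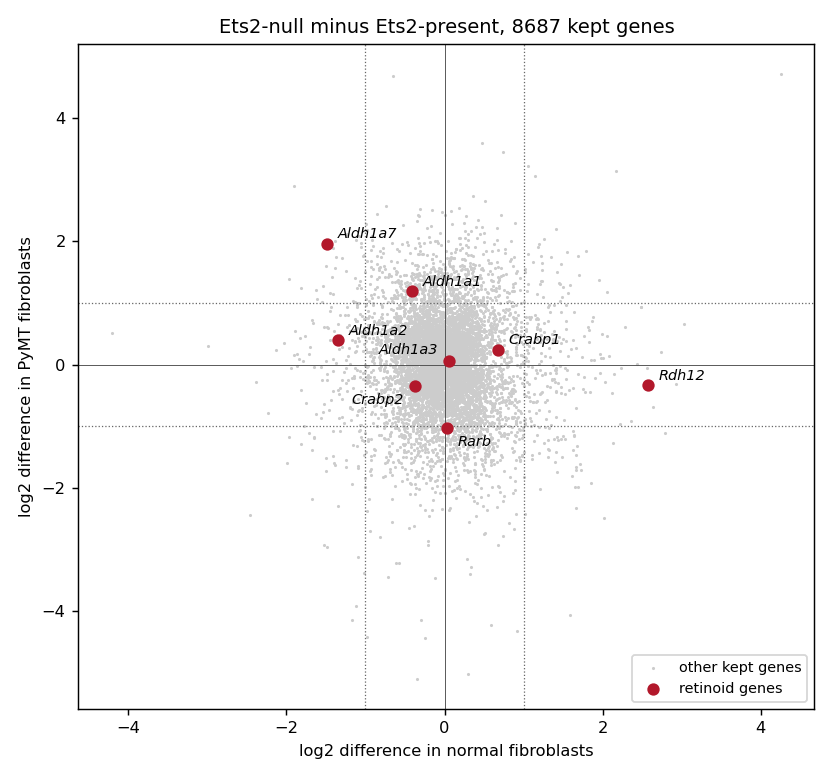
Log2 difference of Ets2-null minus Ets2-present fibroblasts with PyMT (vertical axis) against the same difference without the oncogene (horizontal axis), 1 point per gene for 8687 kept genes, each from 2 arrays, with dotted lines at 2-fold. Aldh1a7 lies at 1.96 and -1.48, in the corner where the 2 differences oppose, and Rdh12 at -0.34 and 2.57.

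The PyMT difference was at least 2-fold for 5 of the 8 genes at each Ets2 status, beside 20.9% of kept genes in Ets2-null and 11.6% in Ets2-present fibroblasts. Crabp1, Aldh1a3, Aldh1a7 and Rdh12 were past it at both. The share of all kept genes past it at both was not counted, so nothing is read from this overlap. With weak values raised, Aldh1a3 was under 2-fold at both (0.62 and 0.56) and Rdh12 in Ets2-present fibroblasts (0.77). In Ets2-null fibroblasts Crabp1 and Rdh12 were lower with PyMT (11.2% of kept genes) and Aldh1a2, Aldh1a3 and Aldh1a7 higher (9.69%). In Ets2-present fibroblasts Crabp1 and Aldh1a7 were lower (6.23%) and Aldh1a3, Rarb and Rdh12 higher (5.42%). Past 4-fold were Crabp1 (2.21% lower) and Aldh1a2 (1.29% higher) in Ets2-null and Crabp1 and Aldh1a7 in Ets2-present fibroblasts (1.12% lower, with 0.84% higher). With its weak value raised, Aldh1a7 was lower by 3.34-fold, under 4-fold. Crabp1 was thus lower and Aldh1a3 higher with PyMT at both Ets2 statuses, while Aldh1a7 and Rdh12 took opposite signs at 2-fold or more, as 90 (1.04%) of all kept genes did. The median of the 8 genes was 0.66 in Ets2-null and 0.61 in Ets2-present fibroblasts, beside 0.05 and -0.01 over all kept genes.

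**Figure D3:**
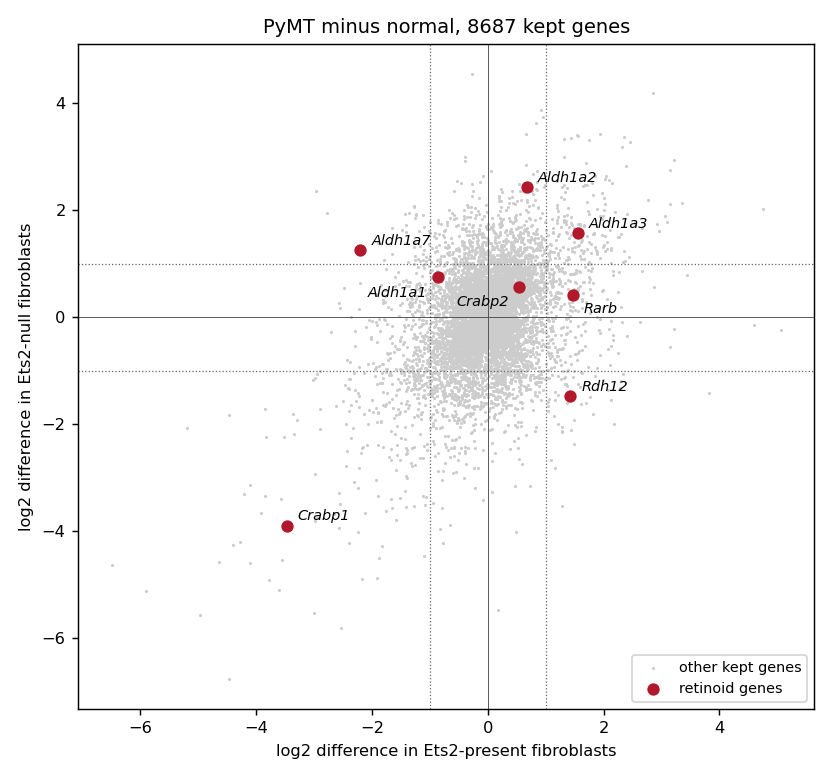
Log2 difference of PyMT minus normal fibroblasts in Ets2-null cells (vertical axis) against the same difference in Ets2-present cells (horizontal axis), 1 point per gene for 8687 kept genes, each from 2 arrays, with dotted lines at 2-fold. Crabp1 lies far down and to the left, at -3.90 and -3.47, and Aldh1a7 (1.25 and -2.20) and Rdh12 (-1.48 and 1.43) lie in opposite corners.

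The Ets2 difference with PyMT minus that without was at least 2-fold for 5 of the 8 genes. It was above 0 for Aldh1a7 (3.44), Aldh1a2 (1.75) and Aldh1a1 (1.60), where 10.2% of kept genes passed 2-fold, and below 0 for Rdh12 (-2.91) and Rarb (-1.06), where 11.2% did. The 3 past 2-fold on the positive side are ALDH1A family enzymes, while Aldh1a3 of that family was at 0.01 and Crabp2 at 0.02. The stand-in spread for this difference had an SD of 0.86. Since the genes were chosen with these values known, nothing is read from the shared family. The median of the 8 genes was 0.02, and that of all kept genes 0.04. These values and those of the separate differences come from the same 4 arrays.

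Around these 8 genes, the pathway was followed in a list of 47 other retinoid genes, of which 39 were on the array and 24 kept. The list, like the 8 genes, was drawn up with earlier results of these data known. With PyMT, 2 of the 24 were at least 2-fold lower in Ets2-null cells (Rbp4 and Rarres2) and 0 higher, beside 7.77% and 7.64% of all kept genes, and without it 0 were lower and 1 higher (Rbp7), beside 2.41% and 3.02%. In Ets2-null fibroblasts 5 were lower with PyMT (Rbp7, Adh1, Adh7, Rarres2 and Meis1) and 1 higher (Dhrs3), beside 11.2% and 9.69% of all kept genes, and in Ets2-present fibroblasts 1 was lower (Adh1) and 1 higher (Dhrs3), beside 6.23% and 5.42%. For the Ets2 difference with PyMT minus that without, 6 were lower (Rbp4, Rbp7, Rdh13, Rarres2, Tgm2 and Hoxa5) and 1 higher (Ttr), beside 11.2% and 10.2%. The medians of the 24 genes for these 5 differences were -0.18, 0.11, -0.44, -0.08 and -0.33, in the order given, and nothing is read from these counts.

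Of the genes that bring retinol into play, Rbp4, the carrier of retinol in serum, had 4.78 in PyMT Ets2-null, 6.35 in PyMT Ets2-present, 5.78 in normal Ets2-null and 5.84 in normal Ets2-present fibroblasts, so that the PyMT Ets2-null array alone was low (2.95-fold below PyMT Ets2-present). Rbp7, a cellular retinol-binding protein, was above 4.63 in the normal Ets2-null array alone (4.99). Adh1, an alcohol dehydrogenase that oxidizes retinol, was split by the oncogene like Crabp1: it was weak in PyMT Ets2-null (4.03) and PyMT Ets2-present (4.21) fibroblasts, against 7.32 in normal Ets2-null and 6.78 in normal Ets2-present fibroblasts. Dhrs3, which reduces retinal back to retinol and is known as a target of retinoic acid, was split the other way, with 10.94 and 10.63 in PyMT Ets2-null and PyMT Ets2-present fibroblasts against 8.74 and 9.31 in normal Ets2-null and normal Ets2-present fibroblasts (4.59-fold and 2.50-fold higher with PyMT). Rdh10, the enzyme that supplies retinal in the embryo, was between 8.65 and 9.18 in every array.

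On the side of response, none of the 4 kept genes among 7 receptors and carriers (Rarg, Rxra, Rxrb and Fabp5) was 2-fold apart in any of the 4 differences, and 4 genes are too few to read anything from that. Rara and Rxrg were weak in every array, as was Cyp26a1, the only enzyme of retinoic acid breakdown on the array among the 3 listed. Rarres2, which encodes the chemoattractant chemerin and is induced by retinoids in human skin, had 9.51 in PyMT Ets2-null, 11.34 in PyMT Ets2-present, 12.34 in normal Ets2-null and 11.51 in normal Ets2-present fibroblasts. It was lower by 3.55-fold in Ets2-null than in Ets2-present cells with PyMT and higher by 1.77-fold without. Meis1, a homeobox gene responsive to retinoic acid, was lower by 2.38-fold with PyMT in Ets2-null fibroblasts, at 5.26 against 6.51.

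**Figure D4:**
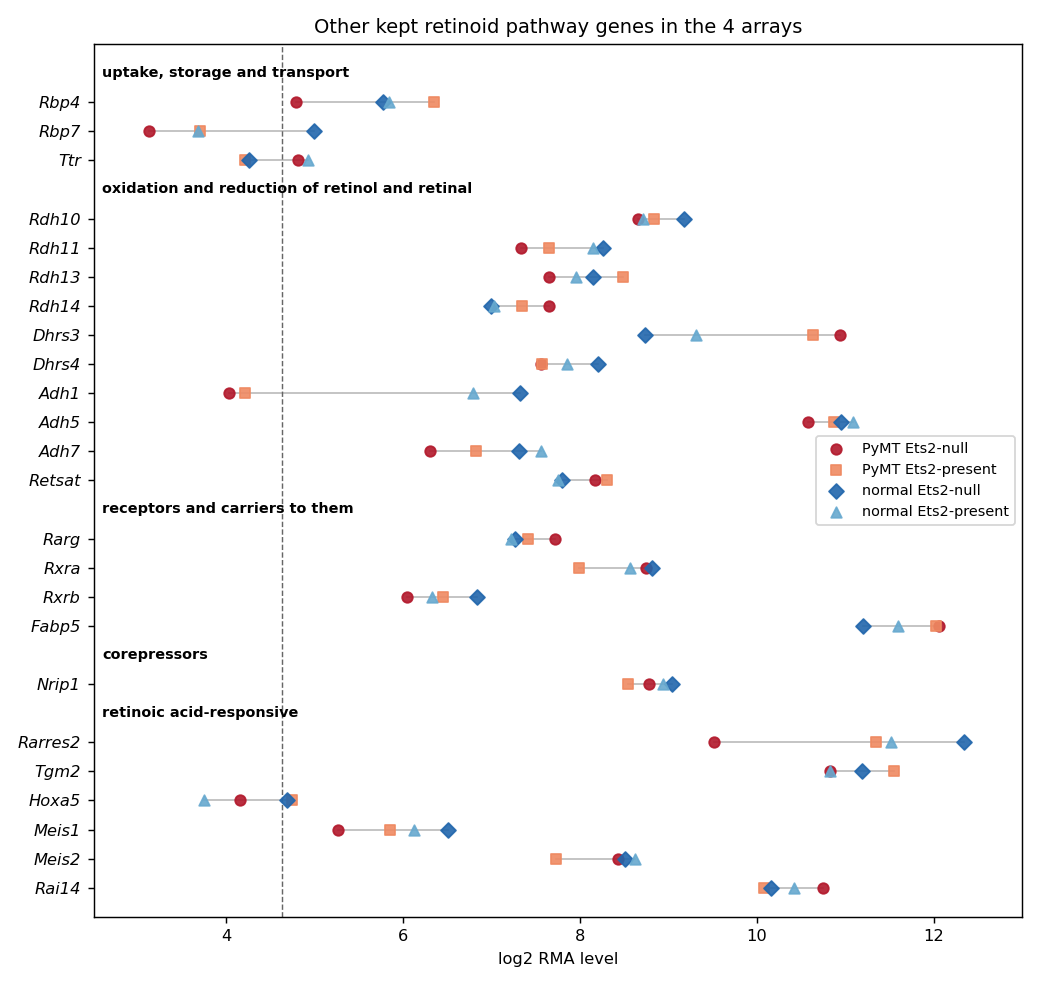
Log2 RMA level (horizontal axis) of the 24 kept genes of the retinoid list, grouped by role down the vertical axis, with 1 symbol for each of the 4 groups, 1 array each, and a dashed line at 4.63. Adh1 lies left of the line in both PyMT groups (4.03 and 4.21) and well right of it in both normal groups (7.32 and 6.78), while Dhrs3 has its PyMT groups on the right.

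Among 14 other aldehyde dehydrogenases listed, 12 were on the array and 9 kept. Between Ets2-null and Ets2-present cells 0 of the 9 were 2-fold apart in either setting, where 15.4% of all kept genes were with PyMT and 5.42% without, shares at which 0 of 9 says little. Aldh3a1, an enzyme abundant in the cornea, was higher with PyMT at both Ets2 statuses, with 5.91 in PyMT Ets2-null and 5.21 in PyMT Ets2-present fibroblasts against weak levels of 3.94 in normal Ets2-null and 3.02 in normal Ets2-present fibroblasts. Aldh1l1 and Aldh9a1 were lower with PyMT in Ets2-null fibroblasts, by 2.62-fold and 2.43-fold.

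The kept genes whose 4 levels, centred on each gene's own mean, lay closest to those of a retinoid gene were sought for the 4 genes with a range of at least 2, over 8686 other genes and 4 arrays. Closest to Crabp1 was Cpxm2, a carboxypeptidase-like secreted protein, with a root mean square distance of 0.20, and then Mboat1 (0.25). Closest to Aldh1a2 were Pdk4, a kinase that inhibits pyruvate dehydrogenase (0.12), and Gpr35 (0.14). Those closest to Aldh1a7 were Acot4 (0.20) and Plscr2 (0.23), and to Rdh12 1700120K04Rik (0.23) and Zfr2 (0.24). Acot4, 1700120K04Rik and Zfr2 were each weak in 3 of the 4 arrays. With 4 arrays, closeness of this kind describes how near the centred levels lay and no more. The order of the arrays could still differ. Cpxm2 had 6.31 in PyMT Ets2-null and 6.39 in PyMT Ets2-present fibroblasts, whereas Crabp1 was the lower one in PyMT Ets2-present fibroblasts.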

How the data were processed

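RNA of 4 cultures was measured on Affymetrix mouse 3′ expression arrays, 1 array per group, and groups were taken from the genotypes in the labels. The deposited table holds log2 levels for 22690 probe sets, made by the authors with RMA (version and the arrays processed together not given). Scanner files were not used here, so detection calls were not made. No value column was left unmapped (0). The platform annotation gave 1 gene for 20393 probe sets, several for 691 and none for 1606, and 20364 were matched to the RefSeq annotation by Entrez ID, with 0 symbols altered.

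A gene was read from its probe set with the highest mean, and kept if its highest level reached 4.63, the 40th percentile. Log2 differences were subtractions of 1 array from another in Python 3.11.15 (pandas 2.3.3, numpy 2.4.6), tested on simulated data, and counted at 2-fold and 4-fold. With 1 array per group, no error or p-value was computed and the number of arrays limits the precision. Alternatives were weak values raised to 4.63, medians made equal, cyclic loess and quantile normalization (limma 3.58.1 in R 4.3.3), the mean over probe sets, no filter, and a filter at 6.78, the 60th percentile.

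The genes named are all probe sets of the 8 genes; listed pathway genes at least 2-fold apart, or otherwise those furthest from 0; the 2 nearest in pattern; and Ets2. Rdh10, the genes given as weak and the markers named were added after their values were seen. The 8 genes, the lists and the markers were chosen with earlier results of these data known. Promoter windows were taken from RefSeq, GRCm38.p6.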

Additional observations from a re-analysis of the deposited data

Results flagged for a closer look

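Aldh1a7 and Rdh12 had differences of opposite sign, each at least 2-fold, under the same contrast. For Aldh1a7 the Ets2 difference was 1.96 in PyMT and -1.48 in normal fibroblasts, and the PyMT difference was 1.25 in Ets2-null and -2.20 in Ets2-present fibroblasts. For Rdh12 the PyMT difference was -1.48 in Ets2-null and 1.43 in Ets2-present fibroblasts. Each value comes from 2 arrays, and the values of a pair come from different arrays. The Ets2 pair and the PyMT pair of Aldh1a7 are built from the same 4 arrays, so they are not separate evidence. Whether the values of a pair differ was not tested. The Rdh12 values come from 1 of its 2 probe sets, and the other was weak in all 4 arrays. With weak values raised to 4.63 the PyMT difference of Rdh12 in Ets2-present fibroblasts was 0.77, under 2-fold, and the Aldh1a7 values were past 2-fold, at 1.50, -1.48, 1.25 and -1.74.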

How the results depend on the processing

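No paired analysis was possible because each group has 1 array. For the same reason no array could be left out. Under each alternative scaling or summary, the 40 differences of the 8 genes kept their sign where they were at least 2-fold. Weak values raised to 4.63 moved 4 of the 40, the mean over probe sets moved 5, and the scalings moved none by more than the stand-in spread. The mean over probe sets could change only Aldh1a3 and Rdh12, which have several probe sets. Raising weak values could change only the genes with a weak level, Aldh1a3, Aldh1a7, Rdh12 and Rarb. The differences of the other genes could not move in these ways, so 40 overstates how many were checked.

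Of the 10 counts of genes at least 2-fold apart, cyclic loess and quantile normalization moved none. Leaving out the filter could not move them, because all 8 genes were kept with it. With the stricter filter 4 of the 8 genes remained (Aldh1a1, Aldh1a2, Crabp1 and Crabp2), and the counts were 0 lower and 1 higher for the Ets2 difference in PyMT fibroblasts, 1 lower and 0 higher for it in normal fibroblasts, 1 lower and 1 higher for the PyMT difference in Ets2-null fibroblasts, 1 lower and 0 higher for it in Ets2-present fibroblasts, and 0 lower for the difference between the Ets2 differences. With medians made equal, Rarb left the counts of genes lower for the Ets2 difference in PyMT fibroblasts (0) and for the difference between settings (1), and the median of all kept genes for the Ets2 difference in PyMT fibroblasts was 0.13, beside 0.02 as deposited. The count of genes higher with PyMT in Ets2-present fibroblasts was 1 (Rarb) with weak values raised and also 1 with the mean over probe sets, since Rdh12 was then under 2-fold, and Aldh1a3 was under 2-fold with weak values raised and not kept with the mean. With the stricter filter, 9.00% of kept genes were at least 2-fold apart for the Ets2 difference in PyMT fibroblasts, 2.32% in normal fibroblasts and 13.6% for the difference between them, beside 15.4%, 5.42% and 21.4% with the filter used.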
